A study of Homo sapiens with 8 samples.

Results

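The 10 genes described here are KIAA1191, C10orf26, ASPH, SYNJ2BP, XPR1, ARHGEF37, CCDC117, CDCP1, CYP20A1 and MATN2. They were selected on these same arrays, because their signal was lower with the miR-375 mimic in the Nthy-ori 3-1 line and higher with the miR-375 inhibitor in the TT line, and because they are less studied than the known targets of miR-375. All probes that carry one of these gene names were taken, which gave 16 probes for the 10 genes out of 50599 probes and 36337 gene names on the array. Of the 10 names, 9 are current RefSeq symbols, and C10orf26 is now WBP1L. ASPH had 3 probes, while XPR1, CDCP1, CYP20A1 and MATN2 had 2 each.

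The transcriptome was measured on 8 one-colour Agilent arrays, 2 in each of 4 groups. Nthy-ori 3-1 is an immortalized line from normal thyroid follicular cells, and it was transfected either with pre-miR-375, a synthetic mimic of the miRNA, or with a control. TT is a line from a medullary thyroid carcinoma, and it was transfected either with antagomiR-375, an antisense inhibitor, or with a control. All 8 arrays carried RNA taken 48 h after transfection, and the protocol in the labels gives 5 nM for premiRs and 20 nM for antagomiRs, while the methods of the study give higher concentrations for both. The labels call the controls of both lines CTL and do not name the reagent, and the methods of the study use pre-miR-CTL and antagomiR-CTL in these lines. Each line is 1 established cell line, and the methods call the repeats of a condition biological replicates, while the labels do not say whether the 2 arrays of a group came from separate cultures. By the labels, RNA integrity was scored 8 on the 2 control arrays of TT cells and 9 on the remaining 6, so a difference between treated and control TT arrays cannot be told apart from a difference in integrity. Within a line, replicate 1 lay on one slide and replicate 2 on another, so each treated array had a control array on its own slide, and each slide held 1 line.

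MicroRNAs guide a silencing complex to messenger RNAs, mostly through base pairing of the seed at their 5′ end with sites in the 3′ untranslated region, and pairing usually lowers the amount of the target mRNA. miR-375 is abundant in neuroendocrine cells, among them the calcitonin-producing C cells from which medullary carcinoma arises. A gene whose mRNA is repressed by the miRNA would be lower with the mimic and higher with the inhibitor, which is the pattern used to pick these genes. An mRNA that responds to the miRNA through other genes can show the same pattern. The level of the miRNA itself is not given here.

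The mature miRNA is shown because its seed defines the site searched for in the probes. RefSeq places it on the minus strand at chr2:219001648-219001669 of GRCh38.p14. Its 22 bases are printed 5′ to 3′, with the seed, bases 2 to 8, in capitals.
hsa-miR-375-3p: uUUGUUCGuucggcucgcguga

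Each probe is 60 bases of its transcript, written on the transcript strand. The 7 bases that pair with the whole seed, CGAACAA, occurred in 1 of the 16 probes, that of C10orf26, against 31 of all 50599 probes (0.0613%) on the transcript strand and 35 (0.0692%) on the other strand. The 6-base match GAACAA, which lies within the longer one, was in the same C10orf26 probe alone among the 16, and in 2.21% of all probes. The match to bases 2 to 7 followed by A, GAACAAA, was in 0 of the 16 probes and in 0.775% of all probes. A probe covers a short stretch of its transcript, so these counts say only which letters lie within the probes. The 30 bases of the C10orf26 probe around the match are at chr10:104575452-104575481 of hg19, on the plus strand, with the match in capitals.
C10orf26: tgtctcaaaggCGAACAAgttttaccaaaa

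All 16 probes were well above background on all 8 arrays, and none was saturated. In what follows, a level is the quantile normalized log2 signal of a probe, and a response is the treated minus the control level on the same slide, with a pair being the 2 arrays of a slide. A standard error (SE) is limma's, which draws the spread of a probe towards that typical of all probes. For a probe whose pairs differ much, it is smaller than the 2 pairs alone would give. Levels of different probes were not set against each other, since probes differ in brightness for the same amount of RNA. In Nthy-ori 3-1 cells, 14 of the 16 probes were lower with pre-miR-375 in both pairs, where 27.9% of all probes were. In TT cells, 13 of 16 were higher with antagomiR-375 in both pairs, where 31.4% of all probes were. Both held for 12 of 16 probes and all 10 genes, and for 8.95% of all probes. Among the 22190 probes well above background on all 8 arrays, 33.5% were lower with the mimic in both pairs. Of the same 22190 probes, 30.5% were higher with the inhibitor in both pairs, and both held for 2782. Treated and control arrays of a line did not overlap, in the picked direction, for 13 of 16 probes with the mimic (14.9% of all probes) and for 13 of 16 with the inhibitor (22.4%). These are the contrasts on which the genes were picked, so their counts and values are a description and no test is given for them.

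The study's methods set a log2 fold change of -1 at an average of 6 for Nthy-ori 3-1 cells and of 0.6 at an average of 6 for TT cells. They also ask for an adjusted p of 0.05 in Nthy-ori 3-1 cells, which 0 of all probes met in the fit used here, so the fold change and average alone were applied. Each of the 10 genes had 1 probe past both, as had 41 of 50582 probes in all (0.0811%), where 1.36% of all probes passed in Nthy-ori 3-1 and 1.18% in TT cells. With the deposited values, with normexp background correction and with the median signal, 7 of the 10 genes passed in Nthy-ori 3-1 and 8 in TT cells. The probes closest to the thresholds among these were that of CDCP1 at -1.01 in Nthy-ori 3-1 cells and that of CYP20A1 at 0.66 in TT cells. The downstream probe of XPR1, at -0.84, was just outside the threshold of Nthy-ori 3-1 cells alone, since it read -0.01 in TT cells. The median response of the 16 probes was -1.14 with the mimic (range -2.08 to 0.18) and 0.77 with the inhibitor (range -0.01 to 1.53), beside medians of 0.0016 and 7e-04 over all probes. For 13 of the 16 probes, which cover all 10 genes, the response was larger in size in Nthy-ori 3-1 than in TT cells. The thresholds that each gene passed with 1 probe ask for a larger size in Nthy-ori 3-1 than in TT cells, which favours this count. The share over all probes was not computed, so the count is no comparison of the mimic with the inhibitor.

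**Figure D1:**
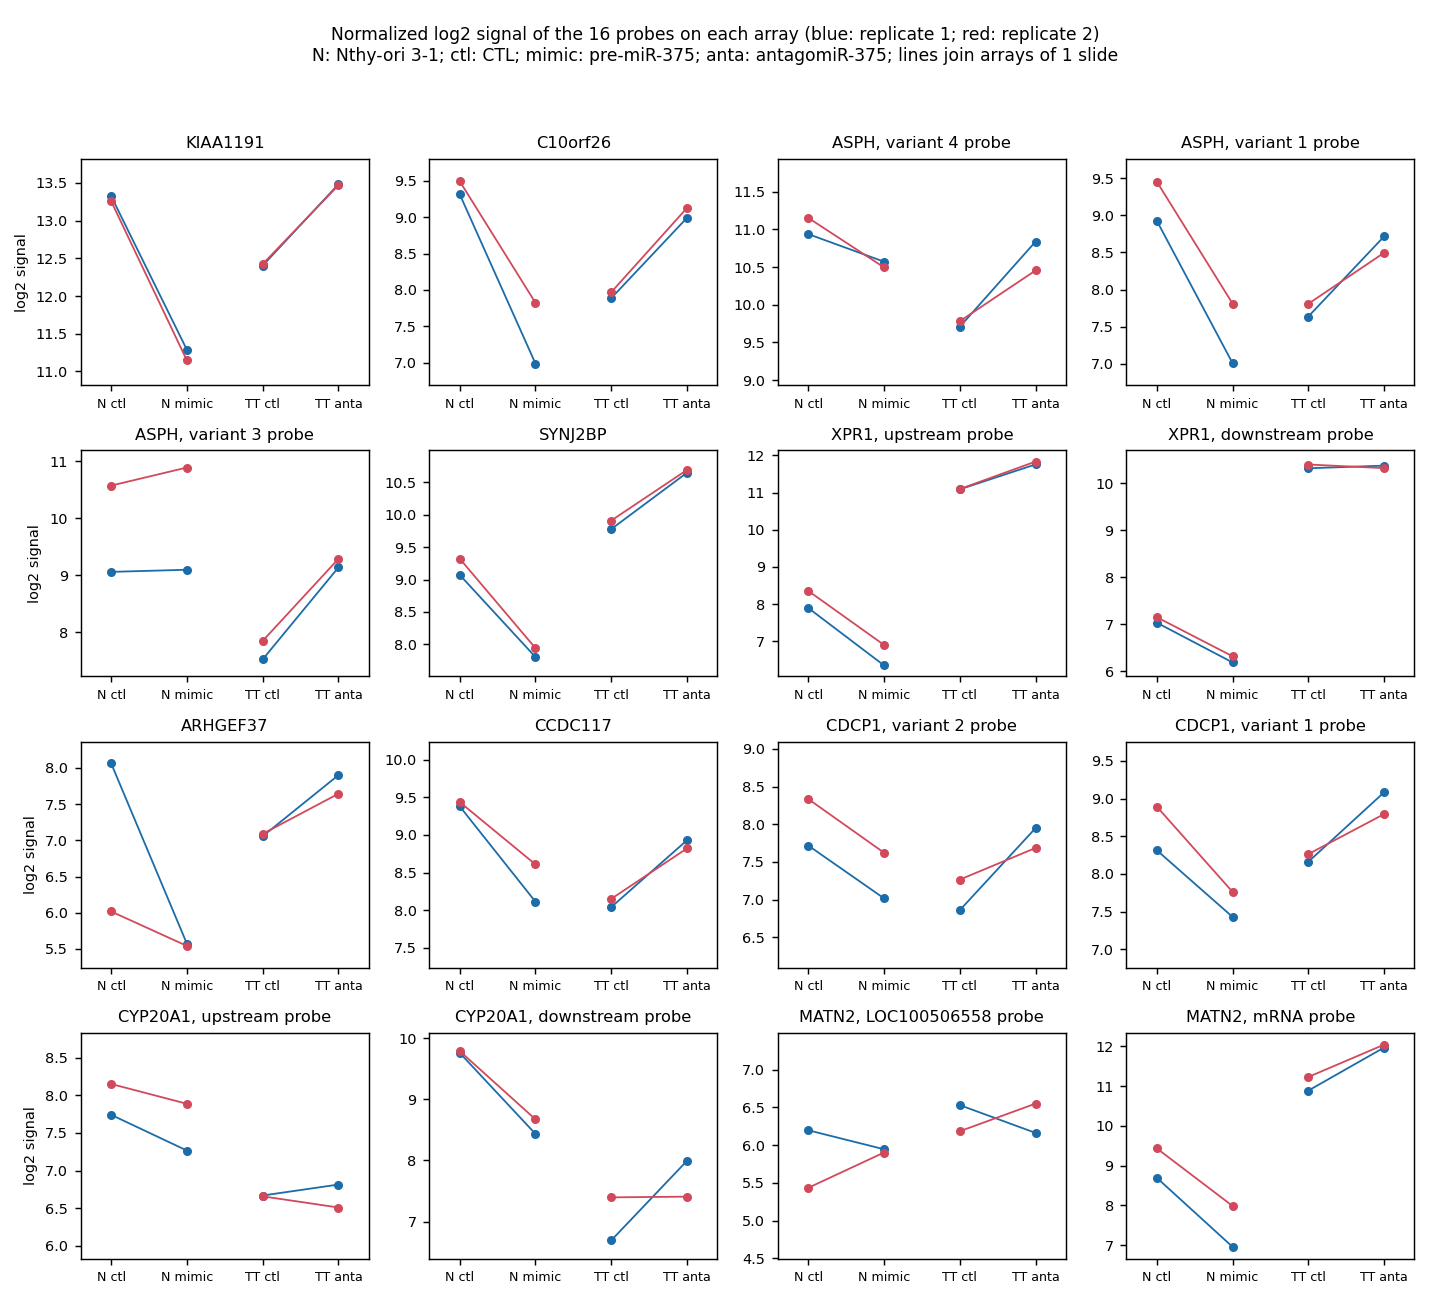
Normalized log2 signal (y axis) of each of the 16 probes on the 8 arrays, by group (x axis), each panel with its own y range. Blue points are replicate 1, red points replicate 2, and lines join the 2 arrays of a slide. Most panels slope down in Nthy-ori 3-1 cells and up in TT cells; the exceptions are the variant 3 probe of ASPH, the downstream probe of XPR1, the upstream probe of CYP20A1 and the LOC100506558 probe of MATN2.

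KIAA1191 encodes a protein predicted to be a monooxygenase, also known as p33MONOX. Its probe lies on chromosome 5 (hg19 chr5:175773228-175773286, minus strand) and is annotated to transcript variant 1. The levels in Nthy-ori 3-1 cells were 13.33 and 13.26 with the control and 11.29 and 11.15 with pre-miR-375. In TT cells they were 12.40 and 12.42 with the control and 13.48 and 13.47 with antagomiR-375. The 2 groups of each line lay far apart compared with the spread between replicates, and the pairs gave nearly equal responses. The mean response was -2.08 ± 0.08 (limma's SE, n = 2 pairs), or 4.22-fold lower, with the mimic. It was 1.06 ± 0.08, or 2.09-fold higher, with the inhibitor. With the inhibitor, the mean level in TT cells stood 0.18 above that of the Nthy-ori 3-1 control cells.

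C10orf26, or WBP1L, is a membrane protein with short proline-rich motifs that are bound by the WW domains of ubiquitin ligases of the NEDD4 family. Its probe is the one that holds the seed match shown above, and it spans chr10:104575444-104575503 of hg19. Levels in Nthy-ori 3-1 cells were 9.32 and 9.49 with the control and 6.99 and 7.82 with pre-miR-375. TT cells gave 7.89 and 7.97 with the control and 8.99 and 9.13 with antagomiR-375. Neither line had an overlap between treated and control arrays, although the 2 mimic arrays differed from each other more than any other pair of replicates of this probe. The responses of the pairs were -2.32 and -1.67 in Nthy-ori 3-1 cells and 1.10 and 1.16 in TT cells, the latter 2.19-fold higher on average.

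SYNJ2BP is a PDZ-domain protein of the outer mitochondrial membrane that binds synaptojanin 2. Its probe (hg19 chr14:70839223-70839282, minus strand) gave 9.07 and 9.32 in control and 7.81 and 7.94 in mimic arrays of Nthy-ori 3-1 cells. The control arrays of TT cells gave 9.78 and 9.91, and the antagomiR-375 arrays 10.64 and 10.69. All 4 pairs moved by amounts larger than the gap between replicates, by -1.27 and -1.38 in Nthy-ori 3-1 cells and by 0.87 and 0.78 in TT cells. The mean folds were 2.50-fold lower and 1.77-fold higher.

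CCDC117, a coiled-coil domain protein, was measured by a probe at chr22:29184752-29184811 of hg19 (plus strand). Its levels in Nthy-ori 3-1 cells were 9.38 and 9.44 with the control and 8.11 and 8.61 with pre-miR-375. Those in TT cells were 8.04 and 8.15 with the control and 8.93 and 8.82 with antagomiR-375. Treated and control arrays did not overlap in either line. The pairs responded by -1.27 and -0.83, and by 0.89 and 0.67, so that the second Nthy-ori 3-1 pair alone would not reach the fold change threshold.

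ARHGEF37 is predicted to be a guanine nucleotide exchange factor. Its probe (hg19 chr5:149014156-149014215, plus strand) gave 8.06 and 6.02 on the control arrays of Nthy-ori 3-1 cells and 5.57 and 5.54 on the mimic arrays. The difference of the second control array minus the first was thus -2.05, and the first decides the size of the mean response. The pairs gave -2.49 and -0.48, with a mean of -1.48 ± 0.72 (limma's SE, n = 2 pairs). In TT cells the levels were 7.06 and 7.09 with the control and 7.90 and 7.64 with antagomiR-375, without overlap, and the responses were 0.84 and 0.55. Without slide 1 of Nthy-ori 3-1 cells this gene would not have passed the threshold.

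**Figure D2:**
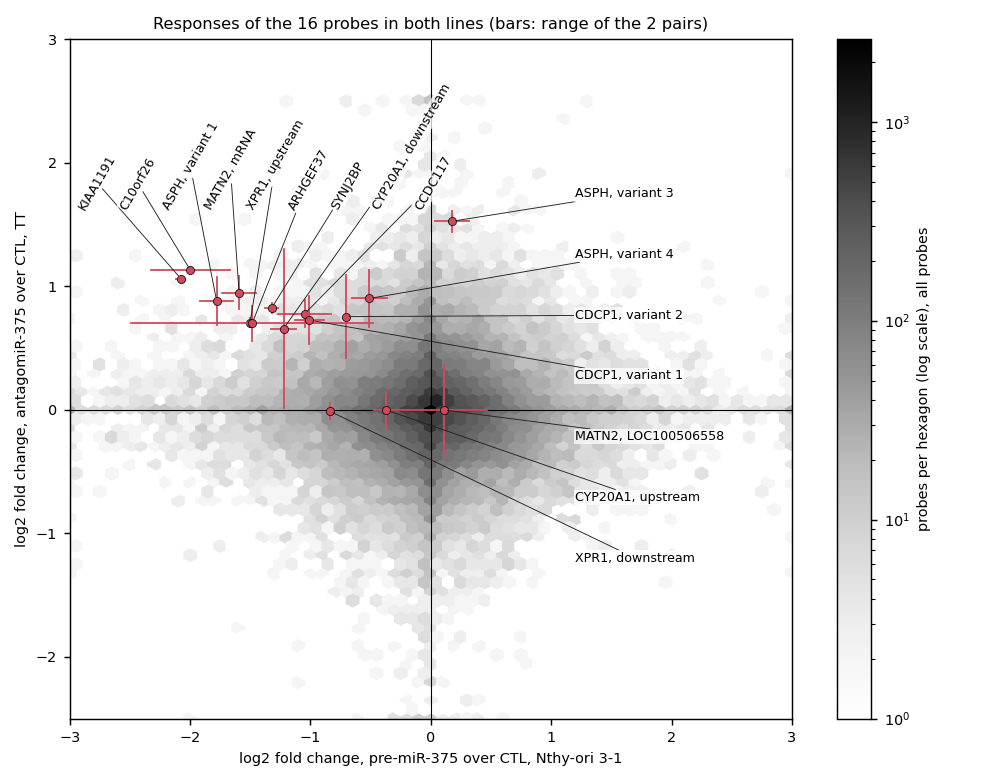
Log2 fold change with the mimic in Nthy-ori 3-1 cells (x axis) against that with antagomiR-375 in TT cells (y axis), for all probes as grey hexagons (darker for more probes, values beyond the plotted range drawn at its edge) and for the 16 probes as red points with bars from the first to the second pair. The points with a probe past both thresholds lie in the upper left, and the long bars belong to ARHGEF37 (-2.49 to -0.48 in Nthy-ori 3-1 cells) and to the downstream probe of CYP20A1 (0.01 to 1.30 in TT cells).

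XPR1, ASPH, CDCP1, CYP20A1 and MATN2 had more than 1 probe, and their probes agreed to different degrees. XPR1 exports phosphate from cells and is the receptor of xenotropic and polytropic murine retroviruses. Both of its probes are annotated to transcript variant 1 on the plus strand of chromosome 1, the upstream one at chr1:180854901-180854960 and the downstream one 4318 bases further on, at chr1:180859219-180859278 (hg19). The upstream probe gave 7.90 and 8.36 with the control and 6.35 and 6.90 with the mimic in Nthy-ori 3-1 cells, and 11.09 and 11.10 with the control and 11.76 and 11.84 with antagomiR-375 in TT cells. The downstream probe gave 7.03 and 7.15, then 6.18 and 6.32 in Nthy-ori 3-1 cells, and 10.32 and 10.40, then 10.38 and 10.32 in TT cells, in the same order. The upstream probe thus separated treated from control arrays in both lines, and the downstream one in Nthy-ori 3-1 cells alone. The responses were -1.55 and -1.46 against -0.85 and -0.83 in Nthy-ori 3-1 cells, and 0.67 and 0.74 against 0.06 and -0.08 in TT cells. In both lines the downstream probe moved less, by 0.66 with the mimic and 0.72 with the inhibitor on the log2 scale.

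ASPH hydroxylates aspartate and asparagine residues in EGF-like domains, and shorter products of the same gene, junctin and junctate, lack the catalytic domain and take part in calcium handling at the endoplasmic or sarcoplasmic reticulum. Its 3 probes lie on the minus strand of chromosome 8 and are annotated to transcript variants 1, 3 and 4. In the direction of transcription the variant 4 probe comes first, the variant 3 probe 58904 bases later, and the variant 1 probe, which crosses a splice junction, at the far end. The variant 1 probe gave 8.93 and 9.45 with the control and 7.01 and 7.81 with pre-miR-375, and 7.64 and 7.81 with the control and 8.72 and 8.50 with antagomiR-375. It separated the groups in both lines, with responses of -1.92 and -1.64 in Nthy-ori 3-1 cells and of 1.08 and 0.69 in TT cells.

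The variant 3 probe of ASPH behaved differently in Nthy-ori 3-1 cells. Its levels there were 9.06 and 10.58 with the control and 9.10 and 10.89 with pre-miR-375, so that replicates lay further apart than the treated and control means, and the responses were 0.04 and 0.32. In TT cells the same probe gave 7.53 and 7.85 with the control and 9.14 and 9.29 with antagomiR-375. Its mean response there of 1.53 ± 0.10 (limma's SE, n = 2 pairs), or 2.88-fold, was the highest of the 16 probes. The variant 4 probe lay between, with 10.94 and 11.15, then 10.57 and 10.50 in Nthy-ori 3-1 cells, and 9.71 and 9.78, then 10.84 and 10.45 in TT cells. Its responses were -0.37 and -0.66 with the mimic and 1.13 and 0.67 with the inhibitor. The probes of ASPH therefore all read higher with antagomiR-375, while with pre-miR-375 their mean responses ran from -1.78 to 0.18.

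CDCP1 is a transmembrane glycoprotein with CUB domains that is phosphorylated by kinases of the Src family and then binds protein kinase C delta. Its variant 1 probe (hg19 chr3:45123839-45123898, minus strand) was printed as 10 spots, whose standard deviation on an array was 0.041 to 0.138 on the log2 scale. The mean of the spots was 8.31 and 8.89 with the control and 7.43 and 7.76 with the mimic in Nthy-ori 3-1 cells, and 8.16 and 8.26, then 9.08 and 8.79 in TT cells. The variant 2 probe crosses a splice junction (hg19 chr3:45152300-45153600), and it gave 7.72 and 8.34, then 7.02 and 7.62 in Nthy-ori 3-1 cells, and 6.86 and 7.27, then 7.95 and 7.69 in TT cells. Both probes separated the groups in both lines. With the mimic their responses were -0.88 and -1.13 for variant 1 against -0.70 and -0.71 for variant 2. With the inhibitor they were 0.92 and 0.53 against 1.09 and 0.42. With the second TT slide alone, neither probe reached a log2 fold change of 0.6.

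CYP20A1 is a cytochrome P450 without a known substrate. Its upstream probe crosses a splice junction (hg19 chr2:204150409-204154500, plus strand), and its downstream probe lies 9056 bases further along the transcript (chr2:204170223-204170282). The upstream probe gave 7.74 and 8.15 with the control and 7.27 and 7.89 with the mimic in Nthy-ori 3-1 cells, where the groups overlapped, and 6.67 and 6.66, then 6.82 and 6.51 in TT cells. The downstream probe gave 9.76 and 9.79, then 8.44 and 8.67 in Nthy-ori 3-1 cells, and 6.69 and 7.40, then 7.99 and 7.41 in TT cells. In Nthy-ori 3-1 cells both read lower with the mimic in each pair, by -0.47 and -0.26 upstream and by -1.33 and -1.12 downstream. In TT cells the responses were 0.15 and -0.15 upstream and 1.30 and 0.01 downstream. The mean of 0.66 ± 0.45 (limma's SE, n = 2 pairs) downstream thus rests on the first slide.

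MATN2, matrilin 2, is a secreted adaptor protein of extracellular matrix filaments. The probe annotated to its mRNA (transcript variant 2, chromosome 8) gave 8.69 and 9.43 with the control and 6.96 and 7.98 with pre-miR-375, and 10.88 and 11.23 with the control and 11.97 and 12.04 with antagomiR-375. It separated the groups in both lines, with responses of -1.74 and -1.45 and of 1.08 and 0.81. The other probe under this gene name is described in the files as the uncharacterized RNA LOC100506558, and it starts 78313 bases upstream. Its levels were 6.20 and 5.43, then 5.95 and 5.90 in Nthy-ori 3-1 cells, and 6.53 and 6.18, then 6.16 and 6.55 in TT cells, with opposite signs in the 2 pairs of each line. It is a measure of that RNA rather than of the MATN2 mRNA as annotated.

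**Figure D3:**
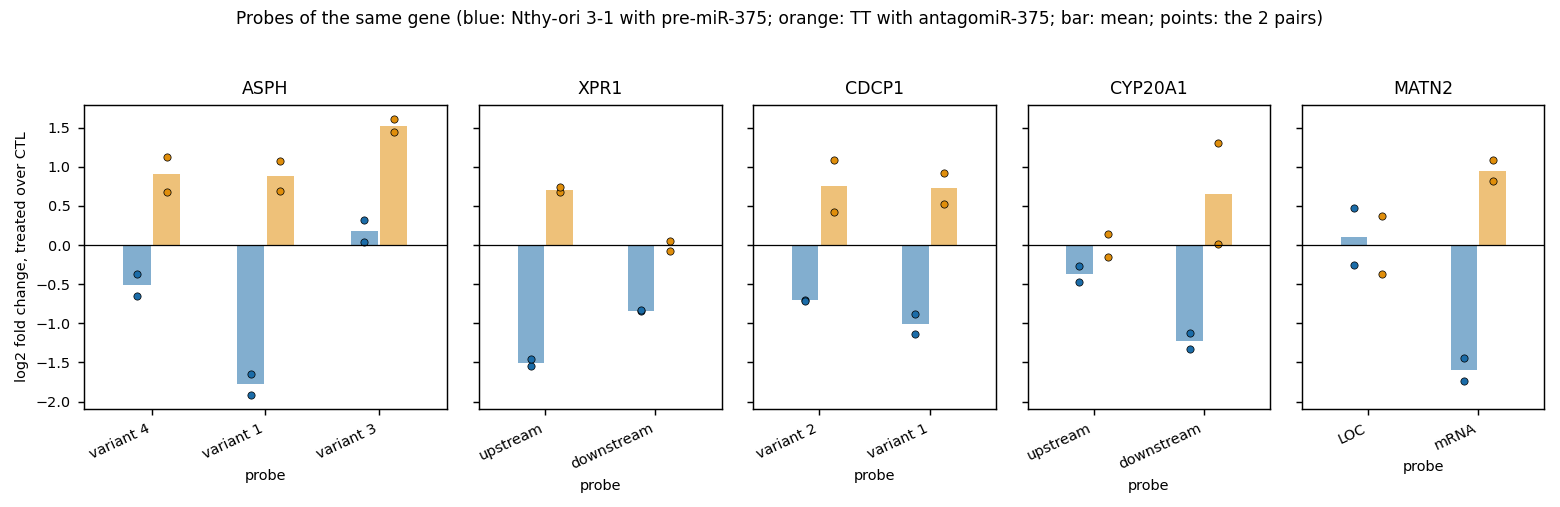
Log2 fold change of treated over control (y axis) for each probe (x axis) of the 5 genes with more than 1, in Nthy-ori 3-1 cells with the mimic (blue) and in TT cells with antagomiR-375 (orange). Bars are the mean of the 2 pairs and points the pairs themselves. The variant 1 and 2 probes of CDCP1 stand at -1.01 and -0.71 with the mimic and at 0.73 and 0.755 with the inhibitor. The variant 3 probe of ASPH stands at 0.18 with the mimic, and the downstream probe of XPR1 at -0.01 with the inhibitor. LOC stands for LOC100506558 in the MATN2 panel.

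After subtraction of each line's mean, the probes of a gene correlated over the 8 arrays at r = 0.95 for CDCP1, 0.889 for XPR1, 0.589 for CYP20A1, 0.779, 0.553 and 0.45 for the pairs of ASPH probes, and -0.381 for MATN2. Between genes, with the brightest probe of each, the 45 pairs had r from 0.489 to 0.988, with a median of 0.898. The points share their arrays and the treatment contrast that picked the genes, so these r describe how closely the profiles run together and carry no test.

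The level of each probe was next compared between the lines, as the mean of the 4 TT arrays minus the mean of the 4 Nthy-ori 3-1 arrays with the slide as a random block. The test was limma's, with Benjamini-Hochberg adjustment over all probes. The mean over both treatments is another contrast than those that picked the genes, but it holds part of both responses, which raises it for a probe read lower with the mimic and higher with the inhibitor. A call is therefore given beside the difference of the control arrays, and it is no measure of untreated cells. A line difference in bulk RNA does not tell more RNA per cell from another make-up of the culture. Of the 16 probes, 5 were higher in TT cells, where 15.7% of all probes were, and 2 were lower, where 16.8% of all probes were. In either direction 32.5% of all probes were called. The calls among the 16 probes were those of XPR1, MATN2, SYNJ2BP, KIAA1191 and CYP20A1. On the control arrays alone, 10 of the 16 were called in either direction, where 13029 of 50584 probes were. Of these 10, 3 were higher and 7 lower in TT cells, and the calls of all probes were not split by direction. The control arrays also entered the picking, so neither count of calls is independent of it.

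XPR1 had the largest of these differences, with 4.07 ± 0.18 (SE) at its upstream probe (limma, adjusted p = 5.905e-05) and 3.69 ± 0.11 at its downstream probe (limma, adjusted p = 1.24e-05). MATN2 was higher in TT cells by 3.26 ± 0.31 at its mRNA probe (limma, adjusted p = 0.000886), and SYNJ2BP by 1.72 ± 0.12 (limma, adjusted p = 0.0002733). On the control arrays alone the difference of SYNJ2BP was 0.64 and the call was lost (limma, adjusted p = 0.07789), while those of the XPR1 probes were 2.97 and 3.27 and that of MATN2 was 1.99. For these 3 genes every TT array, treated or not, lay above every Nthy-ori 3-1 array. CYP20A1 was lower in TT cells at both probes, by -1.10 ± 0.21 upstream and -1.80 ± 0.36 downstream (limma, adjusted p = 0.01246 and 0.01465), with every TT array below every Nthy-ori 3-1 array. The upstream call did not hold with 1 mean per slide (limma, adjusted p = 0.0515), nor without either TT slide (limma, adjusted p = 0.09964 and 0.1275). The downstream one did not hold without either Nthy-ori 3-1 slide (limma, adjusted p = 0.09814 and 0.1147).

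KIAA1191 shows how the line difference depends on the arrays compared. The mean over both treatments was 0.69 ± 0.10 higher in TT cells (limma, adjusted p = 0.004192; 0.06006 and 0.05966 without the first or the second TT slide, and 0.05674 with scaling by the 75th percentile), while the control arrays alone were 0.88 lower in TT cells. On the control arrays alone, 10 of the 16 probes were lower in TT cells, with a median difference of -0.92 beside -0.05 over all probes. These arrays also entered the contrasts that picked the genes, which favour high controls in Nthy-ori 3-1 and low controls in TT cells, so the values are a description. The control difference was -1.48 for C10orf26, -1.31 for CCDC117, -1.28 and -2.74 for CYP20A1, -0.39 and -0.96 for the variant 1 and 2 probes of CDCP1, and -1.47, -2.13 and -1.30 for the variant 1, 3 and 4 probes of ASPH. It was 0.03 for ARHGEF37. KIAA1191, C10orf26 and the variant 1 probe of CDCP1 thus changed sign between the mean of the lines and the control arrays. The 9 probes of ASPH, CDCP1, C10orf26, CCDC117, ARHGEF37 and LOC100506558, did not pass the test on the mean of the lines, with adjusted p from 0.05672 (limma, ASPH variant 4) to 0.8493 (limma, C10orf26). Without the first Nthy-ori 3-1 slide the variant 3 probe of ASPH was called lower (-2.28, limma, adjusted p = 0.005633) and ARHGEF37 higher in TT cells (1.64, limma, adjusted p = 0.01005), and without the second the ASPH probe stood at -0.63.

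**Figure D4:**
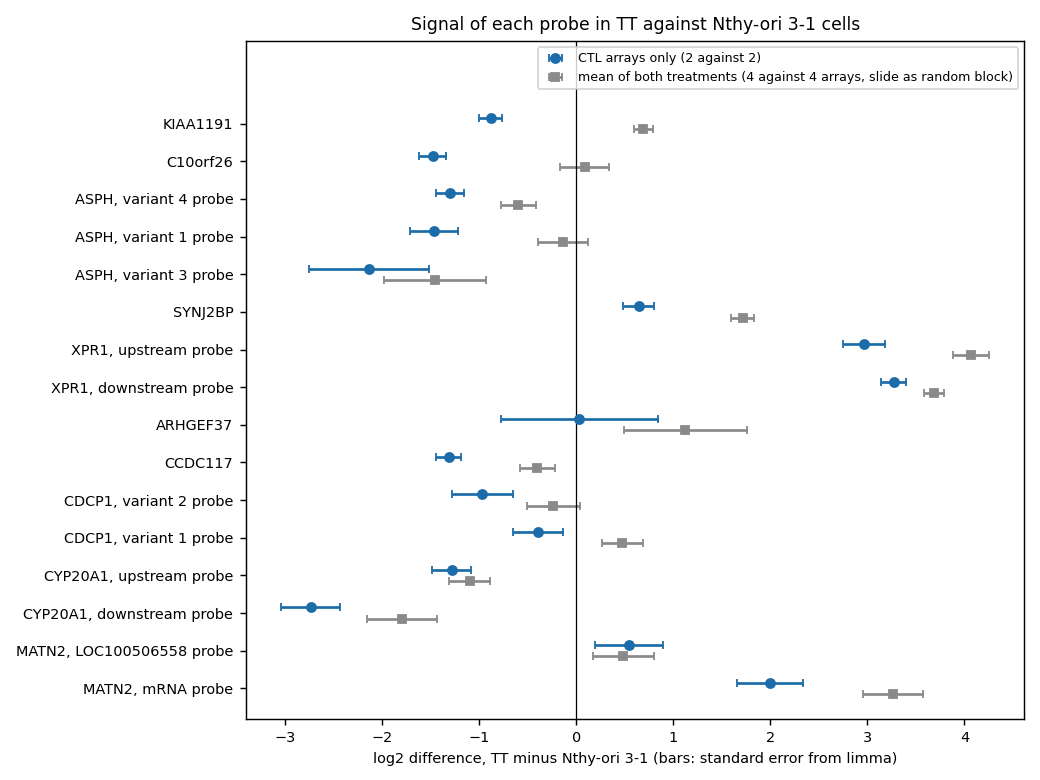
Log2 difference of TT minus Nthy-ori 3-1 cells (x axis) for each of the 16 probes (y axis), on the control arrays alone (blue circles) and as the mean over both treatments (grey squares), with limma's standard error as bars. XPR1, MATN2 mRNA and SYNJ2BP lie to the right of 0 with both, CYP20A1 to the left with both, and KIAA1191 changes side from -0.88 to 0.69.

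The labels of the lines were checked against cell type markers. The C cell or medullary carcinoma markers CALCA, CHGA, CHGB, SYP, CEACAM5 and RET were higher on every TT array than on any Nthy-ori 3-1 array, and CALCB was not analysed here. Of 7 follicular markers, PAX8 and FOXE1 were higher on every Nthy-ori 3-1 array, TG and NKX2-1 were higher on every TT array, and TSHR was not well above background on any array. NKX2-1 was at background on all Nthy-ori 3-1 arrays. In Nthy-ori 3-1 cells, both mimic arrays but neither control array had CALCA, CHGA, CHGB and SYP well above background. CALCA read 8.12 and 4.51 with the mimic and 3.91 and 3.57 with the control, against 18.49 to 18.61 in TT cells. CHGA read 4.91 and 5.13, then 3.46 and 2.09 in the same order, against 16.71 to 17 in TT cells. CHGB read 5.19 and 6.5, then 3.72 and 4.13, against 11.16 to 12.04. SYP read 5.49 and 6.15, then 1.91 and 2.11, against 9.51 to 9.91. The other markers named did not follow. CEACAM5 was not above background on any Nthy-ori 3-1 array. RET was on all 4, at 6.37 and 5.83 with the control and lower, at 6.19 and 5.50, with the mimic. XPR1, MATN2 and SYNJ2BP, which were higher in TT cells, read lower on the same 2 mimic arrays, as did KIAA1191, C10orf26 and CCDC117. All of these genes were picked as lower with the mimic on these arrays. Their direction there was thus fixed by the picking and says nothing about the marker readings. The part of these marker readings in the responses of the 10 genes was not tested.

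The relatives and partners of the 10 genes were taken from a list of 34 genes, with the brightest probe for each. It holds the NEDD4-family ligases and WBP1 for C10orf26, calcium release proteins and ASPH-domain relatives for ASPH, the synaptojanins for SYNJ2BP, phosphate transporters and KIDINS220 for XPR1, exchange factors for ARHGEF37, Src-family and partner proteins for CDCP1, other P450 enzymes and their reductase for CYP20A1, and matrilins for MATN2. limma called 0 of the 34 in either line at an adjusted p of 0.05, as it called 0 of all probes (0% in each line). At an unadjusted p under 0.05 it had 9 of 34 in Nthy-ori 3-1 cells and 4 of 34 in TT cells, where 14.3% and 9.73% of all probes were. In both pairs, 17 of the 34 read lower and 13 higher with the mimic, where 27.9% and 31.7% of all probes did, and 10 read lower and 14 higher with the inhibitor, where 30.4% and 31.4% did. Their median responses were -0.05 and 0.11. In both pairs of each line, 6 of the 34 read lower with the mimic and higher with the inhibitor, where 8.95% of all probes did.

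Among the partners with the largest differences in Nthy-ori 3-1 cells were 2 ligases that can bind WBP1L. WWP2 read 8.25 and 8.39 with the control and 7.18 and 7.50 with pre-miR-375, a response of -0.98 ± 0.10 (SE). NEDD4L read 11.36 and 11.70, then 10.70 and 10.69, a response of -0.83 ± 0.15. Both were thus lower in each pair, but with an adjusted p of 0.3177 and 0.3255 (limma). MATN3, another matrilin, gave -1.34 ± 0.12, and FYN, a Src-family kinase, -0.75 ± 0.13, with an adjusted p of 0.3177 and 0.3218 (limma).

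In TT cells the largest differences of the list were those of the ligase WWP1 with 0.79 ± 0.12, the calcium release channel RYR2 with 0.73 ± 0.09, the synaptojanin SYNJ2 with 0.62 ± 0.21 and MATN1 with -0.60 ± 0.35. Their adjusted p were 0.5118, 0.5118, 0.5371 and 0.6669 (limma). WWP1 read 9.64 and 9.72 with the control and 10.56 and 10.39 with antagomiR-375, and gave -0.26 and -0.10 with the mimic. RYR2 read 8.70 and 8.76, then 9.38 and 9.53, and was not above background on any Nthy-ori 3-1 array. The ligases WWP1, WWP2 and NEDD4L, like C10orf26, were above background on all 8 arrays.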

How the data were processed

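Agilent one-colour arrays carried RNA of 4 groups, 2 arrays each. The authors deposited Feature Extraction output per array, with a processed spot intensity that is background subtracted and not normalized between arrays, and 1 table of log2 values of the same arrays, which matched the log2 median signal (r at least 0.99779) and was used as an alternative. The submitters' processing notes name limma. The labels name polyA RNA and the methods total RNA.

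Processed intensities were taken to log2, control spots and outlier spots (341 to 428 per array) were left out, replicate spots were averaged per probe, and quantile normalization was run over the 8 arrays (limma 3.58.1, R 4.3.3). Each line had its own fit, blocked by replicate number, and lines were compared with the slide as a random block (correlation 0.5004). The numbers mark shared slides, read from the arrays' headers; same-numbered arrays deviated together (r = 0.7852 in Nthy-ori 3-1, 0.3296 in TT). P were adjusted by Benjamini-Hochberg over all probes. The fits leave 1 residual degree of freedom per line. An exact permutation test of 2 against 2 that ignores the slides cannot go below 0.3333, and one kept within slides has fewer arrangements still. The small number of arrays limits the precision of every value.

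Named were all probes of the 10 genes, the 4 listed relatives with the largest difference per line among probes above background there, and for each gene the most similar profile. The 10 genes and the lists were chosen with earlier results of these data known. A further marker gene is not reported here. On simulated data with 200 probes changed by 2 on the log2 scale, the line comparison called 200 of 200 with 18 unchanged probes. The simulated noise was equal for all probes, unlike that of the arrays. With 200 probes changed by -2, the response fit also called 200 of 200 there, while on the real arrays it called 0 probes. The simulation thus checks the code and does not give the power on these arrays. No genome of build hg19 was used, so whether a probe lies in an exon or UTR is not given.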

Additional observations from a re-analysis of the deposited data

How the results depend on the processing

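Calls in the responses changed with the signal used. In Nthy-ori 3-1 cells the probes at an adjusted p of 0.05 were 0 as reported, 1560 with normexp, 517 with the median signal and 577 with the deposited values, and among the 16 probes 9, 6 and 6. In TT cells the median signal gave 10 calls, 1 of them among the 16 probes. Normexp called 2 of the 34 relatives in Nthy-ori 3-1 cells. No replicate block left 0 calls in both lines. A threshold of -0.6 in place of -1 took 1820 in place of 689 probes in Nthy-ori 3-1 cells, and 1 in place of 0.6 took 121 in place of 599 probes and 3 of the 10 genes in TT cells. Without either slide, 8 to 9 genes passed in Nthy-ori 3-1 cells and 7 to 10 in TT cells, of 757 to 829 and 887 to 951 probes. The line comparison called 9712 to 17733 probes without any one slide, against 16445, and 5 to 8 of the 16. On control arrays only, the line difference turned to -0.88 for KIAA1191, -1.48 for C10orf26 and -0.39 for the variant 1 probe of CDCP1. Without any one slide it ran from -0.17 to 0.34 for C10orf26, from -0.47 to 0.20 for the variant 1 probe of ASPH and from -0.54 to 0.072 for the variant 2 probe of CDCP1, which were not called with all arrays. These causes were not tested. The fits without a slide kept the slide correlation of all 8 arrays. The SYNJ2BP call was lost on control arrays only, and the variant 3 and 4 probes of ASPH were called lower in TT cells with normexp (-1.34 and -0.51) and with the median signal (-1.39 and -0.54). Scaling by the 75th percentile moved the median line difference of all probes from -0.06 to -0.10.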

Other observations

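For each of the 10 genes, the other gene whose profile was closest was sought over the 8 arrays, after subtraction of each line's mean, among 22174 probes above background on all arrays. The brightest probe stood for each gene. For ASPH this was the variant 4 probe, with a mean response of -0.51 with the mimic, and not the variant 1 probe that passed the thresholds. The highest r was that of KIAA1191 with the unannotated transcript XLOC_004195, at 0.9984, followed by CCDC117 with RRP9, a ribosomal RNA processing protein, at 0.9983. XPR1 was closest to the phosphoinositide phosphatase TMEM55A (0.9975), C10orf26 to RABGAP1L (0.9974), MATN2 to PDCD11 (0.9962), CDCP1 to NUFIP2 (0.9946), SYNJ2BP to the RNA-binding protein STAU1 (0.991), ASPH to DOCK5 (0.9861), CYP20A1 to the replication licensing factor CDC6 (0.9854), and ARHGEF37 to LOC389906 (0.9731). The matched genes moved less than the genes they match, for example by -1.09 and 0.60 for XLOC_004195, -1.23 and 0.57 for TMEM55A and -0.38 and 0.27 for RRP9, in Nthy-ori 3-1 and TT cells. With 8 points in 4 groups, profiles this close are found for any of the 10 genes, and no test was run.

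The probes that hold the full seed match were looked at after their count was known. Of the 31 with CGAACAA on the transcript strand, 10 were well above background on all 8 arrays, and 6 of these read lower with pre-miR-375 in both pairs (60%, median response -0.47), where 33.5% of 22190 such probes did (median 0.03). In TT cells, 4 of the 10 read higher with antagomiR-375 in both pairs, where 30.5% did, with a median response of -0.05. All 4 were among the 6, and C10orf26 is 1 of them. Of the 17 such probes with the letters on the other strand, 5 read lower with the mimic (29.4%) and 2 read higher with the inhibitor (11.8%). These are counts of few probes, given without a test.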
